A study of Mus musculus with 11 samples.

Results

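PU.1 occupancy was followed across the 10 genes of the Myb and Myc-Max network in 2 kinds of immature erythroid cells of the mouse. The genes were Myb, Mybl2, Myc, Mycn, Max, Mxd1, Mxd4, Mxi1, Mnt and Mga, which are 10 of the 22350 protein-coding genes annotated on chromosomes 1 to 19 and X. They were taken from a list of names, and each name was found once in the annotation. For each gene the gene body and 20 kb on either side were used, and for Myb 120 kb upstream, toward Hbs1l, so that the genes cover 1570 of the 4676550 windows of 500 bp that held a read in any library.

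PU.1 belongs to the Ets transcription factors and is best known from myeloid and B cells, and it is also made in early erythroid progenitors. c-Myb, the product of Myb, keeps hematopoietic progenitors dividing and is shut off as red cells mature, and B-Myb, the product of Mybl2, drives genes of late cell cycle. Myc and N-Myc activate transcription from E-boxes as partners of Max, whereas Mxd1, Mxd4, Mxi1, Mnt and Mga also pair with Max and mostly oppose Myc, so that the make-up of the network is tied to whether a progenitor grows or differentiates.

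The MEL cells were a murine erythroleukemia line (clone DS19 in the methods, clone 4 in the labels) that stably expresses a GATA-1/ER fusion, in which GATA-1 is joined to the ligand-binding domain of the estrogen receptor. The ES-EP were erythroid progenitors derived from ES cells that proliferate in erythropoietin, IGF-1, dexamethasone and SCF. The MEL medium contained puromycin, and the growth descriptions of both cell types name no estradiol or other inducer of differentiation. The same anti-PU.1 antibody (T-21) was used on 2 separately prepared chromatins per cell type, named A and B, each sequenced as 2 libraries that were summed. Input DNA was sequenced as 1 library for MEL cells and 2 for ES-EP, so that a ratio over input rests on a single input pool, and its test compares reads rather than replicate inputs. The MEL preparations held 5685468 (A) and 6972811 reads (B), the ES-EP preparations 6275205 and 7084483, and the inputs held 4270630 (MEL) and 7476546 (ES-EP). Because the MEL line is 1 clone and the ES-EP 1 culture system, cell type cannot be told apart from line. At the upstream regulatory element (URE) of Sfpi1, the gene for PU.1, which served as a positive control (chr2:90923214-90923299, mm9), the 500 bp around the amplicon held 10.0 times the scaled input in MEL cells (95% exact binomial interval 3.82 to 37.4) and 9.93 times in ES-EP (3.71 to 37.5). This and all later intervals over input cover counting error only. At the URE the MEL preparations held 23 (A) and 96 reads (B) and the ES-EP preparations 33 and 38, against 4 input reads in each cell type.

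A window was called when its PU.1 reads exceeded the number expected from input (Poisson, Benjamini-Hochberg adjusted p below 0.05 over all windows) and each preparation alone exceeded it at an unadjusted p below 0.05. The expected number was the largest of the scaled input in the window, in 5 kb and in 10 kb around it, and the genome mean, named the local input here. Of the windows of the 10 genes, MEL cells had 30 called and ES-EP 26, with 13 shared, against 0.433% and 0.315% of all windows. This is 1.91% and 1.66% of the windows of these genes, and pooled over the regions of all protein-coding genes the shares were 0.814% and 0.602%. At least 1 cell type had a call in 43 windows of these genes. Genome-wide that number was 27987, from 20243 MEL calls and 14749 ES-EP calls, so most calls were not shared there either. Neighbouring called windows were joined into 30 sites, 21 of which MEL cells had, 21 ES-EP and 12 both. Of the genes 9 had at least 1 site in each cell type, and Mycn had none. Among all gene regions, 58.8% had a called MEL window and 49.2% a called ES-EP window. By their densest window the sites lay in intergenic sequence (10), within 1 kb of a start of the gene itself (8), in its introns (7) or exons (2), or at another gene (3). Sites and their places were tallied for these genes only, so they have no genome-wide share beside them. Distances below are from the outermost annotated start of the gene to the middle of the window with the most reads of the site, and a minus sign marks upstream. Whether a call was kept or lost under an alternative was examined for that window alone, not for the other windows of the site.

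The sequences around the densest point of PU.1 reads are shown for 7 sites outside exons on which the results turn: the sites of Myb, Max, Mxd1 and Mnt with the highest reads, the Myb sites at −36.0 and 9.5 kb, which are 2 of the 6 called in ES-EP alone, and the Mxi1 intron where the reads of the cell types are most uneven. Each is 120 bases of mm9, written 5′ to 3′ on the plus strand in lower case, and capitals mark the PU.1 word GAGGAA or the shorter Ets word GGAAGT on either strand, so that a word on the minus strand appears as its reverse complement.
Myb, −33.0 kb (chr10:20913729-20913848): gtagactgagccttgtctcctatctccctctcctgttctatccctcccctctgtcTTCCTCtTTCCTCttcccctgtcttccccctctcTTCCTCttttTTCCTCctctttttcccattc
Myb, −36.0 kb (chr10:20916496-20916615): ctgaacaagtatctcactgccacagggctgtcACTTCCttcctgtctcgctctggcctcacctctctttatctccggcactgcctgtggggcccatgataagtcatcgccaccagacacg
Myb, intron, 9.5 kb (chr10:20871279-20871398): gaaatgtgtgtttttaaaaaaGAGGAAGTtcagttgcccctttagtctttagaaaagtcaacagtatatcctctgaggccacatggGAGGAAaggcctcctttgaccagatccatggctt
Max, intron, 19 kb (chr12:78044167-78044286): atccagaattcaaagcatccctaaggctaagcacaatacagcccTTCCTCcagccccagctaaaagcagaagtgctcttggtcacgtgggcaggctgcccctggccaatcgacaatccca
Mxd1, upstream, −0.1 kb (chr6:86619213-86619332): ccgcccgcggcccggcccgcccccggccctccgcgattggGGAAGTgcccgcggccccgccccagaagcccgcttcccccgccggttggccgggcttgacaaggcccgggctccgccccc
Mnt, −1.2 kb (chr11:74643392-74643511): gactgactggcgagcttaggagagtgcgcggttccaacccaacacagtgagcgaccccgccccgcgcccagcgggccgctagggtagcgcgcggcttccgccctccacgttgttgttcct
Mxi1, intron, 21.8 kb (chr19:53406501-53406620): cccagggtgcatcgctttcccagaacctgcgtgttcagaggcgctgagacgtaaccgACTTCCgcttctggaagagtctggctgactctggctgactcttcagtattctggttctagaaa
The Myb sequence at −33.0 kb is a tract in which 88.3% of the bases are C or T and its 500 bp window carries GAGGAA 6 times. The window at the Mxd1 start holds no GAGGAA, 1 GGAAGT and 59 CpG dinucleotides, and the Mnt window at −1.2 kb holds neither word. The densest point was sought only inside the densest 500 bp window of each site. At Mnt it fell at the downstream limit of that search, beside another called window. The Mnt stretch may therefore miss the densest point of the whole site. The Max sequence also contains an E-box, CACGTG, the word that Myc-Max dimers bind.

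Myb had 10 sites, and 1 of them was at its promoter. Its region is also the longest, and with the flank of 20 kb used for the other genes it would keep 3 sites, against 6 at Mxi1. In the 120 kb examined upstream, toward Hbs1l, the strongest was the C and T rich tract at −33.0 kb. MEL cells held 26 (A) and 21 reads (B) with 1 input read, and ES-EP held 48 and 36 reads with 3 input reads. Scaled to the total reads of each preparation, as counts-per-million values (CPM), that is 4.57 and 3.01 CPM in MEL cells against 7.65 and 5.08 CPM in ES-EP, so that both ES-EP preparations lie above both MEL preparations. Over the local input the site reached 7.21-fold in MEL cells (95% Poisson interval 5.30 to 9.59) and 15.7-fold in ES-EP (12.5 to 19.4). Without the 5 kb and 10 kb terms these folds were 15.9 and 15.7, and they then rest on the 1 and 3 input reads of the window. The cause of the gap was not tested. The site was called in both under all alternatives tried. The difference between the cell types did not pass limma's test (MEL minus ES-EP −0.73 on the log2 scale, SE 0.66, 95% interval −2.03 to 0.56, adjusted p = 0.789 over all tested windows).

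The neighbouring site at −36.0 kb (chr10:20916501-20917000) was called in ES-EP and not in MEL cells. ES-EP held 40 and 18 reads there and MEL cells 9 and 16, which are 6.37, 2.54, 1.58 and 2.30 CPM. It stood 4.06-fold over the local input in ES-EP (3.08 to 5.25) and 2.11-fold in MEL cells (1.37 to 3.11), and the ES-EP call was lost without ES-EP preparation A and with the first libraries alone. Called in one cell type and not in the other does not mean different, and here limma gave −1.06 (SE 0.63, adjusted p = 0.789). Elsewhere upstream, 1 more site was called in both cell types, at −60.5 kb, and those at −28.0, −81.0, −105.5 and −108.5 kb were called in ES-EP alone with 15 to 35 reads over both preparations.

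On the other side, past the 3′ end of Myb and toward Ahi1, a pair of windows 52.0 and 52.5 kb downstream of the start (chr10:20828001-20829000) was called in MEL cells alone. In the outer window MEL cells held 15 (A) and 27 reads (B) and ES-EP held 4 and 8, or 2.64, 3.87, 0.637 and 1.13 CPM. Both MEL preparations are thus above both ES-EP preparations, and the input of either cell type had 2 reads there. Over the local input this window stood at 7.1-fold in MEL cells (5.11 to 9.58). In ES-EP it stood at 3.36-fold (1.7 to 5.9), and missed the call by its adjusted p (Poisson, 0.0772). This window had the smallest limma p of all windows of the 10 genes (log2 1.79, SE 0.62, unadjusted p = 0.0042, adjusted p = 0.348), and of 12 alternatives only scaling by median ratios passed (adjusted p = 0.0137). Inside the gene, the intron site 9.5 kb downstream of the start held 18 and 9 reads in ES-EP and 3 and 11 in MEL cells and was called in ES-EP, where the window itself had no input read and the expected number came from the input around it.

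**Figure D1:**
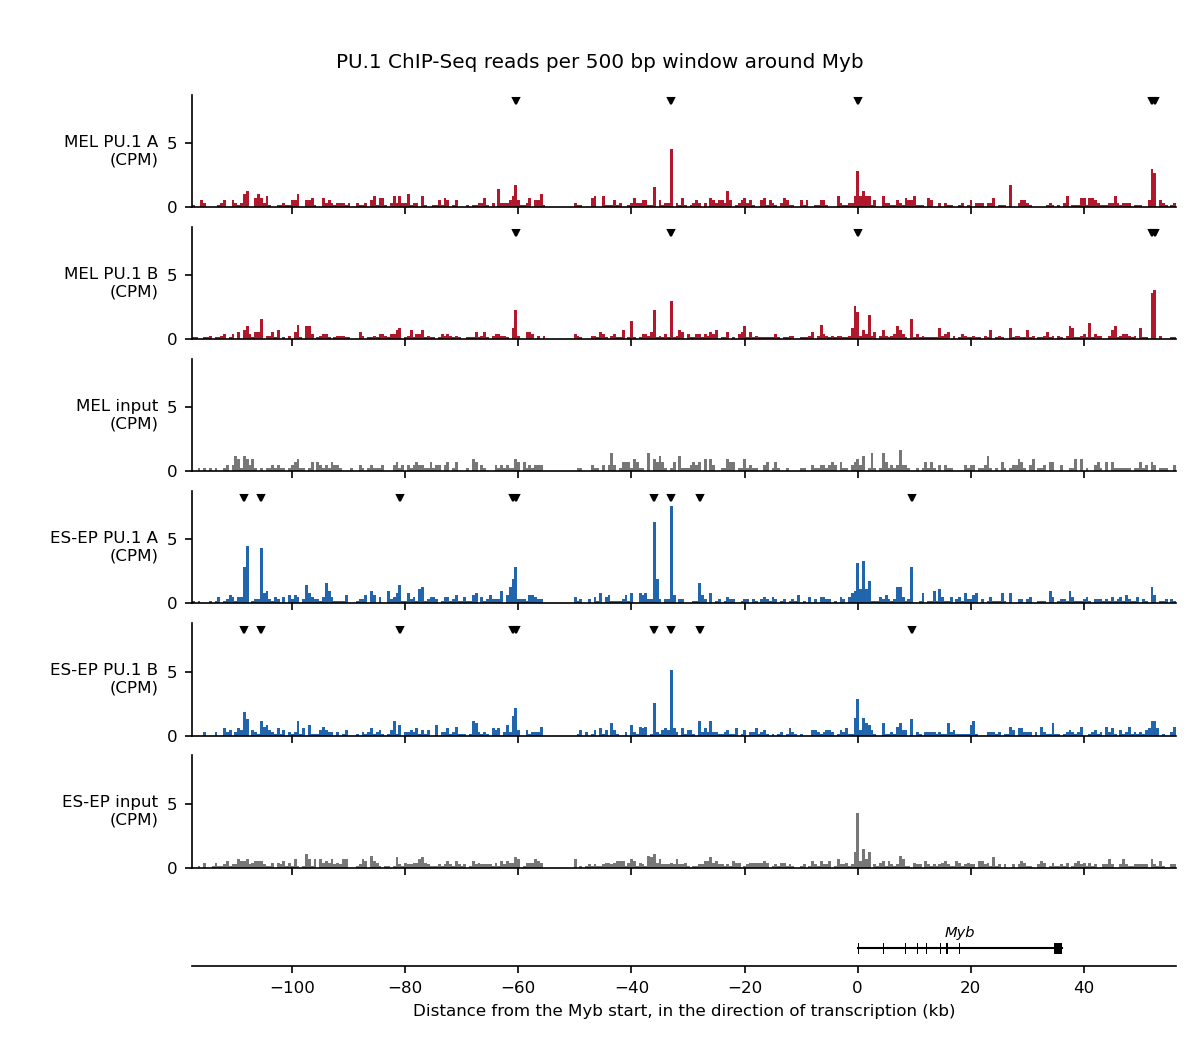
Reads in CPM in 500 bp windows around Myb for the 4 PU.1 preparations and the 2 inputs, against the distance from the Myb start in kb, with black triangles over windows called in that cell type and exons drawn below. Peaks at −33.0 kb stand out in all 4 preparations, those at 52.0 kb in MEL cells, and the ES-EP input has its own peak at the start.

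At the Myb promoter (chr10, start at 20880790) the PU.1 reads of the cell types were alike and the inputs were not. The window over the start held 16 and 15 reads in MEL cells against 20 and 20 in ES-EP, or 2.81, 2.15, 3.19 and 2.82 CPM. The input there was 0.937 CPM in MEL cells (4 reads) and 4.28 CPM in ES-EP (32 reads). The PU.1 reads did not pass limma's test (log2 −0.27, SE 0.62, 95% interval −1.49 to 0.95, adjusted p = 0.875). The window was called in MEL cells (2.62-fold over the local input, 1.78 to 3.71) and stood at 0.70-fold in ES-EP (0.50 to 0.95). The MEL call was lost without MEL preparation A, without MEL preparation B with the first library of each preparation alone and with the windows moved by 250 bp. The c-myb amplicon of the study's primer list, placed by exact match of both primers at chr10:20880366-20880515, gave the same picture in its surrounding 500 bp, with 15 and 10 reads against 1 input read in MEL cells, and 16 and 12 reads against 19 input reads in ES-EP. The ratio over input was 8.43 in MEL cells, with an interval from 1.38 to 346, and 0.82 in ES-EP, with an interval from 0.44 to 1.56. Whether the input or PU.1 sets that contrast was not tested. The paper reported PU.1 occupancy at Myb in both cell types by ChIP-Seq, close to the start, inside the gene or both. Its peaks came from these same libraries, with the duplicates merged and with other peak callers. It also reported occupancy there by qChIP with an isotype control antibody, a measure unlike these read ratios.

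Mybl2 had a site at its start and another in an intron. At −0.2 kb (chr2:162880001-162880500) MEL cells held 10 and 37 reads and ES-EP 64 and 37, or 1.76, 5.31, 10.2 and 5.22 CPM. MEL preparation B and ES-EP preparation B are nearly level there, so that the groups overlap. The site was called in both cell types, 9.33-fold over the local input in MEL cells (6.85 to 12.4) and 2.83-fold in ES-EP (2.30 to 3.43), with 1 MEL input read and 20 ES-EP input reads. The MEL call of this window was lost without MEL preparation B (4.42-fold), and its ES-EP call without ES-EP preparation A (1.95-fold) and with the first libraries alone. The intron site 1.3 kb downstream of the start was called in ES-EP alone, with 20 and 18 reads against 3 and 9 in MEL cells, a call lost with the first libraries alone, and there the groups do not overlap (limma log2 −1.54, SE 0.65, unadjusted p = 0.0177, adjusted p = 0.601).

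The Myc gene had 2 sites, both over its coding exons and neither at a start. At 2.8 kb (chr15:61819501-61820000) it held 13 and 16 reads in MEL cells against 11 and 14 in ES-EP, or 2.29, 2.30, 1.75 and 1.98 CPM, and it was called in both, 2.80-fold over the local input in MEL cells (1.87 to 4.02) and 3.68-fold in ES-EP (2.38 to 5.44). At 3.8 kb (chr15:61820501-61821000) it held 20 and 22 reads in MEL cells against 15 and 5 in ES-EP, and it was called in MEL cells alone. Over the local input it stood at 2.02-fold in MEL cells (1.46 to 2.74) and 3.20-fold in ES-EP (1.95 to 4.94), where preparation B alone did not pass. Leaving out a preparation moved the folds little but cost calls, at 2.8 kb without either MEL preparation (2.80 and 2.79-fold) or ES-EP preparation B (3.45-fold), and at 3.8 kb without either MEL preparation. With the first libraries alone the MEL folds were 1.02 and 1.28 and no call was kept at either site, and the call at 3.8 kb was also lost with the windows moved by 250 bp (1.56-fold). The ES-EP call at 2.8 kb was lost with the second libraries alone as well. Mycn had no called window among 93, only 1 of its windows reached 20 reads over the 4 preparations, and its 2 promoters held between 0.797 and 2.73 CPM in every preparation, against 0.937 to 1.87 CPM of input. At this depth no PU.1 site was detectable there.

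Max, the partner that every Myc and Mxd protein needs, had its main site in an intron 19 kb downstream of the start and none at its promoter. The site (chr12:78044001-78044500) held 26 and 22 reads in MEL cells against 20 and 24 in ES-EP, or 4.57, 3.16, 3.19 and 3.39 CPM. The 4 preparations lie close together and the groups overlap (limma log2 0.21, SE 0.64, 95% interval −1.04 to 1.47, adjusted p = 0.908). It was called in both cell types under all alternatives tried, 10.8-fold over the local input in MEL cells (7.96 to 14.3) and 4.10-fold in ES-EP (2.98 to 5.51). The window held 1 input read in MEL cells and 6 in ES-EP. A second intron site, at 4.5 kb, held 12 and 8 reads in ES-EP and 4 and 6 in MEL cells and was called in ES-EP alone, a call that was lost without ES-EP preparation A and with either library of each preparation alone.

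Of the genes whose products oppose Myc, Mxd1 and Mnt had the single windows with the highest PU.1 reads. Mxd1, which is induced as many blood cells mature, had the highest window of all 10 genes, at −0.1 kb over its start (chr6:86619001-86619500). There MEL cells held 31 (A) and 94 reads (B) and ES-EP held 183 and 68, or 5.45, 13.5, 29.2 and 9.60 CPM. ES-EP preparation A is the highest and MEL preparation A the lowest, and the groups overlap. It was 8.43-fold over the local input in MEL cells (7.02 to 10.1) and 9.37-fold in ES-EP (8.24 to 10.6), and it was called under all alternatives tried. Preparations A and B alone stood at 4.66 and 11.5-fold in MEL cells, and at 14.5 and 4.78-fold in ES-EP. The intron site 2.9 kb downstream held 24 and 36 reads in MEL cells with no input read, and 35 and 9 in ES-EP with 2. It was 11.6-fold (8.83 to 14.9) and 8.21-fold (5.96 to 11) over the local input, and the ES-EP call was lost without ES-EP preparation A. Another site, at −7.1 kb, lies over an exon of Snrnp27 and was called in ES-EP with 5 and 9 reads, and MEL cells held 14 and 4. It stood 3.92-fold over the local input in ES-EP, a call lost in 5 of 9 alternatives, and 5.52-fold in MEL cells, where MEL preparation B alone did not pass.

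Mnt, which is expressed in most cells and pairs with Max throughout the cell cycle, had its strongest site at −1.2 kb (chr11:74643001-74643500). The site spans 3 windows, called in both cell types, of which the last holds the Mnt start. The densest window held 22 and 56 reads in MEL cells against 116 and 49 in ES-EP, or 3.87, 8.03, 18.5 and 6.92 CPM. As at Mxd1, ES-EP preparation A is the highest, MEL preparation A the lowest, and the B preparations lie between them. This window was 6.58-fold over the local input in MEL cells (5.20 to 8.21) and 7.70-fold in ES-EP (6.57 to 8.96) and was called under all alternatives tried. Preparations A and B alone stood at 4.1 and 8.6-fold in MEL cells, and at 11.5 and 4.3-fold in ES-EP. The site at 6.8 kb (chr11:74651001-74651500) held 18 and 42 reads in MEL cells against 79 and 42 in ES-EP and was called in both. The MEL call was lost without MEL preparation B (1.93-fold), the ES-EP call without ES-EP preparation A (1.85-fold), and both with the first libraries alone.

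Mxi1 had 6 sites, all called in MEL cells and 1 of them also in ES-EP. The most uneven was the intron site at 21.8 kb (chr19:53406501-53407000), which holds part of the Mxi1 amplicon of the primer list (chr19:53406403-53406539) and was picked out here after its reads were seen. It held 29 and 30 reads in MEL cells against 0 and 3 in ES-EP, or 5.10 and 4.30 CPM against 0 and 0.424 CPM, and 3 reads in ES-EP preparation A would be 0.478 CPM. Scaled to depth the MEL reads were 20.8 times the ES-EP reads, with a counting interval from 6.77 to 104. The input was also uneven, 1.17 CPM in MEL cells (5 reads) and 0.134 CPM in ES-EP (1 read), and the site was 3.98-fold over the local input in MEL cells (3.03 to 5.14) and 0.39-fold in ES-EP (0.080 to 1.13). By the test fixed for windows, limma with voom weights, the difference did not pass (log2 4.59, SE 2.58, adjusted p = 0.789), whereas limma on log2 CPM plus 0.5 called it (log2 2.93, SE 0.50, adjusted p = 5.9e-06), and none of the other 13 alternatives did (adjusted p from 0.35 to 0.96). In the 500 bp centred on the amplicon the reads were 23 and 29 in MEL cells against 0 and 2 in ES-EP. This stretch overlaps the window, so its reads are not a separate count. The paper classed a locus near Mxi1 as enriched in MEL cells from these same reads, and reported differing PU.1 occupancy there by qChIP.

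At the first Mxi1 start the window at 0.3 kb held 20 and 36 reads in MEL cells against 23 and 14 in ES-EP, or 3.52, 5.16, 3.67 and 1.98 CPM, and the groups overlap. It was called in MEL cells under all alternatives tried, 4.72-fold over the local input (3.57 to 6.13), and it stood at 1.73-fold in ES-EP (1.22 to 2.38). At the inner starts, 19.3 kb downstream, PU.1 reads were again alike, 18 and 38 in MEL cells against 39 and 19 in ES-EP, and the input was 0.234 CPM in MEL cells (1 read) against 4.41 CPM in ES-EP (33 reads). The MEL call there was lost with the first library of each preparation alone. The site at 79.8 kb lies over the start of the neighbouring gene Smndc1 and is the Mxi1 site called in both cell types. Its densest window, called in MEL cells alone, held 23 and 32 reads with 4 input reads in MEL cells and 41 and 22 reads with 30 input reads in ES-EP. The ES-EP call came from the next window, at 80.3 kb, with 18 and 14 reads (2.24-fold over the local input), where MEL cells held 5 and 28 (3.71-fold) and MEL preparation A alone did not pass. The remaining Mxi1 sites, in an intron at 3.3 kb and upstream at −6.7 kb, held 43 and 36 reads over both MEL preparations and 39 and 12 over both ES-EP preparations.

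**Figure D2:**
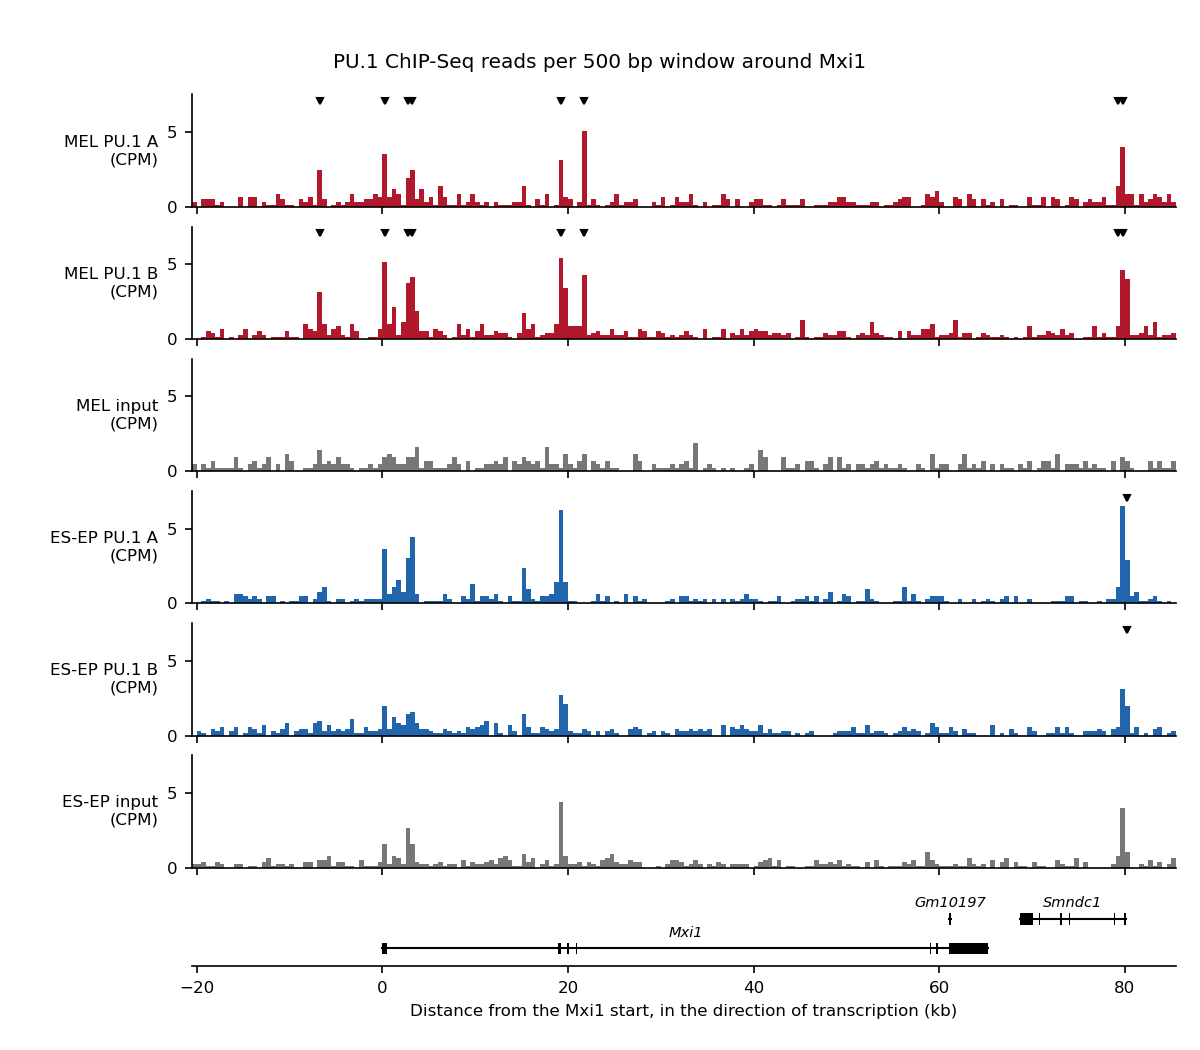
Reads in CPM in 500 bp windows around Mxi1 for the 4 PU.1 preparations and the 2 inputs, against the distance from the first Mxi1 start in kb, with black triangles over called windows and exons below. The window at 21.8 kb is high in both MEL preparations and at or near 0 in both ES-EP preparations, and the ES-EP input peaks at 19.3 and 79.8 kb.

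Mxd4 and Mga had fewer sites. The Mxd4 site at −0.4 kb (chr5:34530001-34531000) was called in both cell types. Its densest window, called in ES-EP alone, held 13 and 45 reads in MEL cells against 53 and 26 in ES-EP, or 2.29, 6.45, 8.45 and 3.67 CPM, with 12 and 16 input reads. The Mxd4 site at 18.1 kb, over the starts of Haus3 and Poln, was called in MEL cells alone. Its densest window held 10 and 16 reads in MEL cells, and ES-EP held 11 and 7 reads there with 14 input reads. The MEL call of that window was lost without MEL preparation B and with either library of each preparation alone, and the ES-EP call of the window at −0.4 kb was lost without ES-EP preparation A (1.72-fold) and with the first libraries. Mga, a large protein that joins Max to a T-box domain, had 1 site of 3 windows at its start (chr2:119722501-119724000), called in both cell types. The densest window held 9 and 16 reads in MEL cells against 11 and 19 in ES-EP, or 1.58, 2.30, 1.75 and 2.68 CPM, 4.22-fold (2.73 to 6.22) and 4.2-fold (2.83 to 5.99) over the local input. The MEL call of that window was lost without MEL preparation B, its ES-EP call without ES-EP preparation B, and both with the first libraries alone. The next window, at 0.8 kb in the first intron, held 3 and 5 reads in MEL cells against 31 and 15 in ES-EP, and the groups do not overlap. Its difference did not pass limma with voom weights (log2 −2.19, SE 0.86, adjusted p = 0.508) and passed limma on log2 CPM plus 0.5 (log2 −1.75, SE 0.52, adjusted p = 0.0323).

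**Figure D3:**
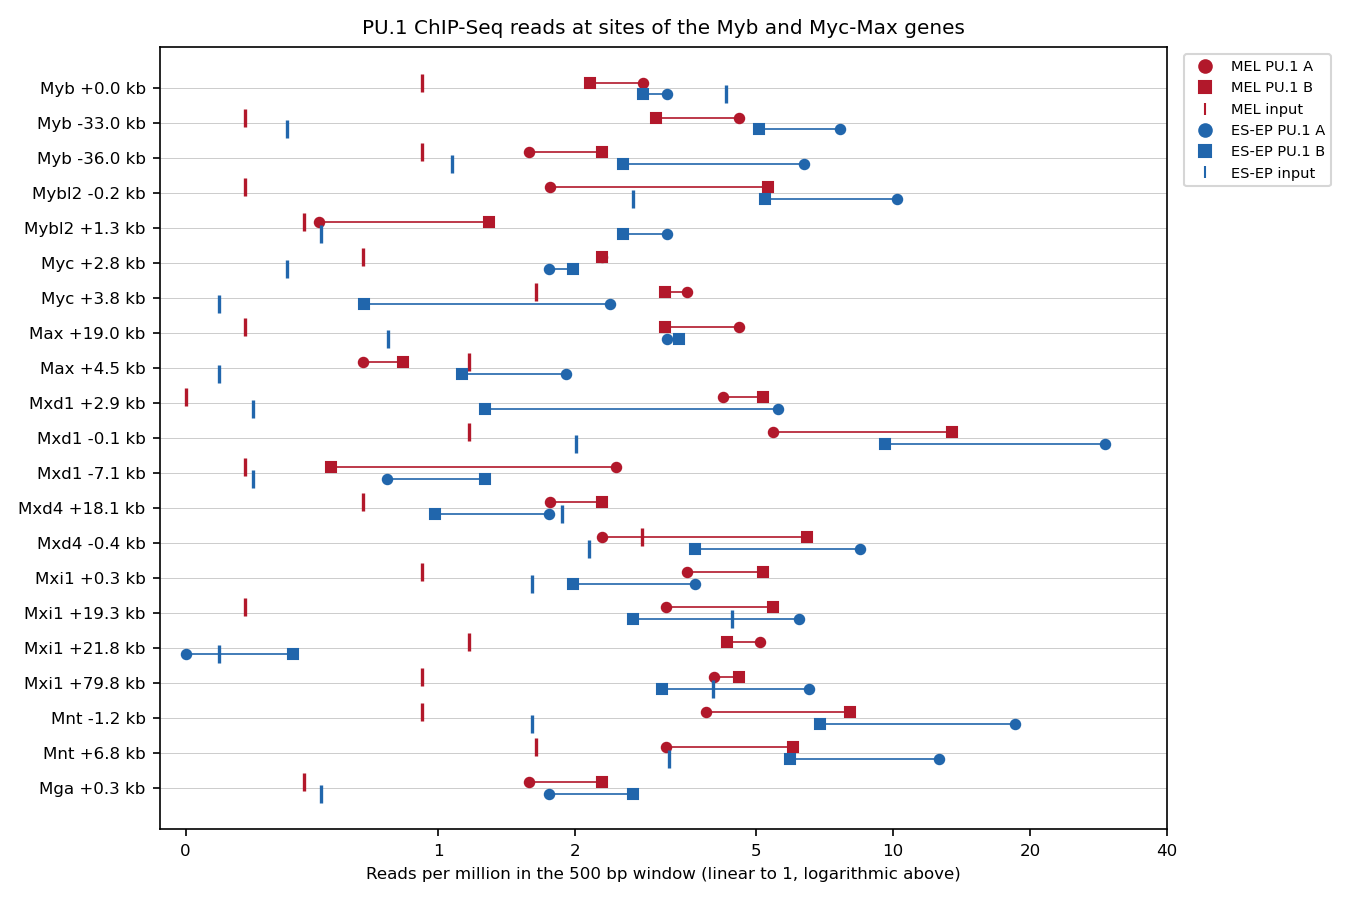
Reads in CPM of each PU.1 preparation at the 20 sites with the most reads, at most 3 a gene, and at the Mxi1 intron, with the input of each cell type as ticks (axis linear to 1 and logarithmic above). The highest values are those of ES-EP preparation A at Mxd1 (29.2) and Mnt (18.5).

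Promoters, taken as 1 kb on either side of each of the 16 annotated starts of the 10 genes, were compared with input by an exact binomial test. In MEL cells 4 promoters were above input, where 9.09% of all promoters were, and in ES-EP 5 were above, where 6.96% were. None was below input, and the shares among all promoters were 0.556% (MEL cells) and 0.201% (ES-EP). Mxd1, the first start of Mnt, and Mga were above input in both cell types. Mxd1 held 46 and 116 reads in MEL cells against 12 input reads, 4.55 times the scaled input (2.54 to 9.0, exact binomial adjusted p = 4.5e-08), and 190 and 75 in ES-EP against 23, 6.45 times (4.21 to 10.3). The first start of Mnt held 57 and 136 reads in MEL cells against 12, 5.43 times (3.04 to 10.7), and 241 and 126 in ES-EP against 48, 4.28 times (3.16 to 5.91). Mga, with 20 and 32 reads in MEL cells against 58 and 43 in ES-EP, was 4.39 times the input (1.61 to 16.7) and 2.83 times (1.74 to 4.82). The first Mxi1 start was above input in MEL cells alone, at 2.31 times (1.25 to 4.64) against 1.65 times in ES-EP (0.95 to 2.99). That MEL call was lost in 3 of 6 alternatives. The first Mybl2 start and the second Mnt start were above in ES-EP alone, at 2.15 and 2.66 times. The former was lost without ES-EP preparation A, without repeated reads and with the first libraries, and the latter with the first libraries. In MEL cells these starts stood at 3.66 and 2.65 times the input, and the inner Mxi1 starts at 2.98 and 3.82 times, all with an adjusted p below 0.05, and were not called because each preparation alone also had to pass. The Mga call was lost without MEL preparation B in MEL cells, and without ES-EP preparation A or within 500 bp of the start in ES-EP. The promoters of Myb, Myc, Mycn, Max and Mxd4 were not called in either cell type, and for Mxd4 in ES-EP, at 1.68 times (1.21 to 2.37, exact binomial adjusted p = 0.0153), this too was for want of both preparations. Input reads enter these ratios. The input was higher in ES-EP at 12 of the 16 promoters (75%) and at 57.4% of all promoters. All promoters together hold 5.15% of the MEL input and 8.41% of the ES-EP input, but the highest single promoter held 579.5 and 7786 CPM. At the median the input was 1.405 CPM (MEL) and 1.338 CPM (ES-EP) over all promoters, and 2.81 and 3.745 CPM over the 16. How far the input moves the calls was not tested.

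**Figure D4:**
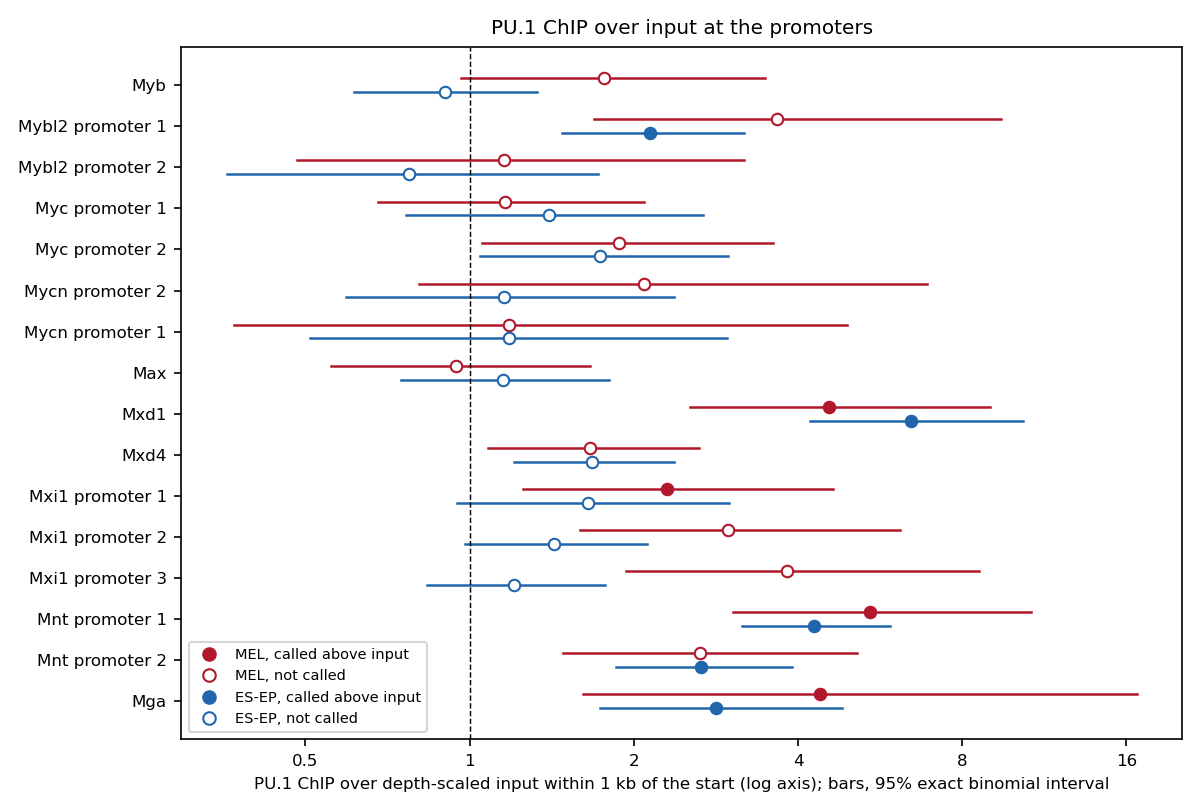
PU.1 reads over scaled input within 1 kb of the 16 starts, on a log axis, for MEL cells and ES-EP, with 95% exact binomial intervals that cover counting error only. Mxd1, Mnt start 1 and Mga lie above 1 in both cell types, and the intervals of Myb, Mycn and Max include 1.

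Between the cell types, no window of the 10 genes passed limma's test among the 102 windows with at least 20 reads, where 0.153% of all windows tested were higher in MEL cells and 0.0726% were lower. Without adjustment 7 of them had a p below 0.05, against 6.41% of all tested. Of the 102, MEL cells were higher in 49 and lower in 53, and the median difference was −0.06 against −0.10 over all windows (log2). Limma on log2 CPM plus 0.5 and scaling by median ratios each called 2 windows of 102, where they called 2.71% and 2.12% of all windows. They are those named above at Mga and Mxi1 for the former, and at Myb and Mxi1 (−6.7 kb, adjusted p = 0.0429) for the latter. None of the 16 promoters differed by limma, none had an unadjusted p below 0.05, and none differed under any alternative, with 0.0814% of all promoters higher in MEL cells and 0.0692% lower. With 2 preparations a side the intervals are wide, and at Mxd1 and Mnt the spread between preparations of the same cells was as large as the difference between the cell types.

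Summed over the gene with its flanks, only the Myc region differed, and it was higher in MEL cells, a direction in which 8.25% of all gene regions were called (4.4% were lower). It held 263 and 334 reads in MEL cells against 209 and 178 in ES-EP, or 1.03, 1.06, 0.740 and 0.559 CPM per kb, and the groups do not overlap (limma log2 0.70, SE 0.19, 95% interval 0.30 to 1.10, adjusted p = 0.0228). The input moved in the same direction, 1.04 CPM per kb in MEL cells against 0.592 in ES-EP, a ratio of 1.75, and over the whole of chromosome 15 the input ratio was 1.27. With the input of each chromosome divided out the difference was 0.35 (adjusted p = 0.339), where 4.66% of all regions were called higher in MEL cells and 2.06% lower. By limma it was also lost without ES-EP preparation B (0.50, adjusted p = 0.221) and with the first library of each preparation alone (0.66, adjusted p = 0.0589). Over the input of the region itself the reads stood at 0.993 (A) and 1.03 (B) in MEL cells and at 1.25 and 0.944 in ES-EP. That contrast was not tested. PU.1 binding and the number of copies of the region cannot be told apart in these summed reads. The other 9 regions ranged from −0.52 at Mnt to 0.44 at Mxi1.

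**Figure D5:**
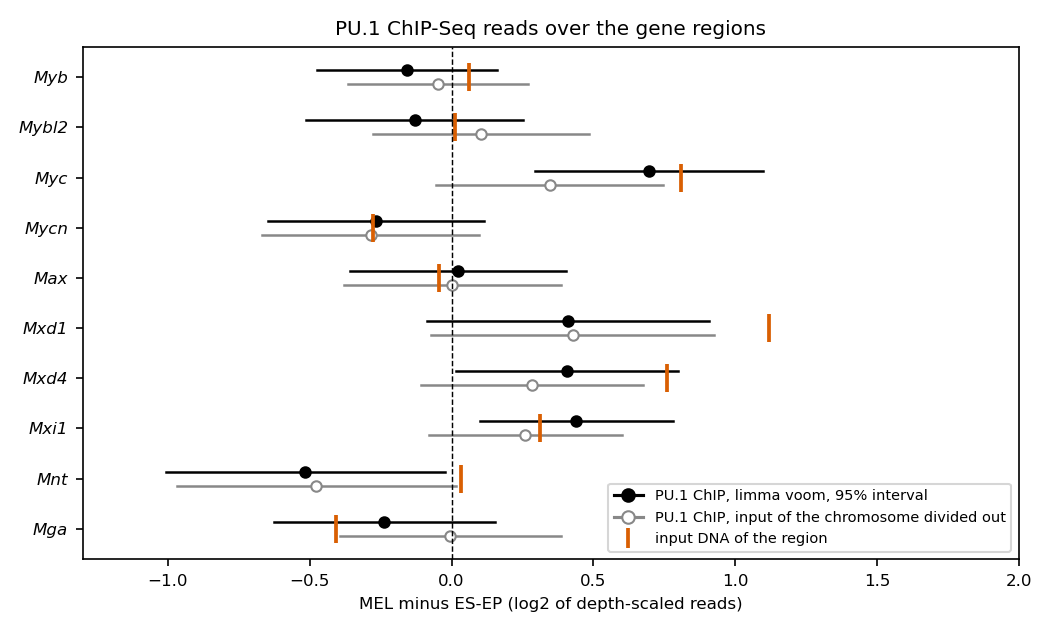
Difference between MEL cells and ES-EP in PU.1 reads over each gene with its flanks (log2, with 95% intervals from limma), as counted (black), with the input of each chromosome divided out (grey), and for the input DNA of the region itself (ticks). Only Myc passes the adjusted threshold as counted, and it moves toward 0 once the input is divided out.

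The words that transcription factors of this setting bind were searched on both strands, as letters only, in the same 500 bp windows. GAGGAA, the core of PU.1 sites, was in 24 of the 43 windows of these genes called in either cell type (55.8%), in 58.1% of all windows so called and in 39.0% of all windows. The longer GAGGAAGT, which contains GAGGAA, was in 7 of the 43 (16.3%), in 22.4% of all called windows and in 2.97% of all windows. GGAAGT, searched after the sequences were seen, was in 24 of the 43 (55.8%), in 57.8% of all called windows and in 26.0% of all windows. AGATAA, bound by factors such as GATA-1, was in 27.9% of the called windows of these genes, 22.5% of all called windows and 30.2% of all windows. CACGTG, the E-box, was in 11.6%, 8.53% and 4.87%. GCGGGAAA, an E2F word, was in 1 of the 43 (2.33%), 1.4% and 0.248%. Within 250 bp of the 16 starts GAGGAA was present at 7 (43.8%, against 41.3% of all promoters), GAGGAAGT at 0 (4.16%) and AGATAA at 6.25% (15.9%). CACGTG was present at Max, Mxd4 and the first start of Mnt (18.8%, against 9.74%), and GCGGGAAA at the first start of Myc.

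A wider list of 20 other genes of the Myb and Myc-Max pathways gave the surroundings. Of their 3376 windows, 43 were called in MEL cells (1.27%) and 29 in ES-EP (0.859%), 14 of them in both. Pooled over all gene regions the shares were 0.814% and 0.602%. In MEL cells 17 of the genes had a called window and in ES-EP 14, and Lin52 had none in either. Among all gene regions 58.8% and 49.2% had such a window. Of their 34 promoters 3 were above input in MEL cells (Zbtb17, Sin3a and Fbxw7) and 3 in ES-EP (Lin37, Zbtb17 and Fbxw7). Of all promoters 9.09% and 6.96% were above input. None of their windows or promoters differed between the cell types by limma, and 2 of their regions were higher in MEL cells, Lin37 (log2 0.74, SE 0.17, adjusted p = 0.00976) and Ruvbl1 (log2 0.84, SE 0.17, adjusted p = 0.00477). Among all gene regions 8.25% were higher in MEL cells. At Lin37 and Ruvbl1 the MEL input was also higher, 2.18 and 1.92 times that of ES-EP. Over their whole chromosomes the input ratios were 1 and 0.989. With the input of each chromosome divided out both still passed limma, Lin37 at 0.735 (adjusted p = 0.0162) and Ruvbl1 at 0.86 (adjusted p = 0.00711). With chromosome ratios this near 1 that division could hardly change either result, and it leaves in the input of the region. Over the input of the region itself, Lin37 stood at 0.832 (A) and 0.989 (B) in MEL cells against 1.23 and 1.14 in ES-EP. Ruvbl1 stood at 0.839 and 0.963 in MEL cells against 0.960 and 0.955 in ES-EP. These ratios were not tested.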

How the data were processed

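Chromatin immunoprecipitation with an antibody to PU.1 and input DNA were sequenced from MEL cells and ES-EP. The authors aligned the reads to mm9, keeping unique matches with at most 2 mismatches, and deposited 1 aligned read per line. The deposited files hold read positions and no counts, signal or peaks, so every read count and CPM here was computed from them. Read 5′ ends on chromosomes 1 to 19 and X were shifted by 70 bp (MEL) or 65 bp (ES-EP) and counted in 500 bp windows, within 1 kb of starts, and over genes with flanks of 20 kb. The 11 libraries held 8 PU.1 libraries, summed by preparation. Enrichment over input was tested with a one-sided Poisson test for windows and a two-sided exact binomial test for promoters, and cell types were compared with limma 3.58.1 (voom weights, R 4.3.3, at least 20 reads for windows and promoters), all with Benjamini-Hochberg adjustment at 0.05 over the whole genome. Each procedure was run on simulated counts with known changes. These were drawn without the differences between preparations seen here, so they do not measure performance at that spread. These tests fit reads counted here, since the files carry no other unit. The genes and lists were chosen with earlier results of these data known. All 10 genes were named, with every promoter and up to 3 sites a gene with the most reads. The Myb sites at 52.0 and 9.5 kb, the Mxi1 sites at −6.7 and 21.8 kb and the search for GGAAGT were added after values were seen. The ES-EP preparations are lettered A and B after the sample titles, whereas the names of the deposited files carry C and D, and that match was not checked further. Preparation letters did not pair the samples (correlation of deviations 0.0106). Alternatives left out a preparation, repeated reads or libraries, and changed the grid, background, threshold, widths, filters, scaling and model. The sequence of 1 site is not reported here.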

Additional observations from a re-analysis of the deposited data

Results flagged for a closer look

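Among 92 groups of 4 libraries (both libraries of both preparations of a cell type), 6 had 1 library set apart from the other 3 by a gap that, as a share of the range, passed the 95% critical value of Dixon's test, and chance sets apart about 1 in 20 groups. At the Myb site at −33.0 kb the highest MEL library stood at 5.5 CPM and the next at 3.06. At the Mybl2 intron site at 1.3 kb the highest MEL library stood at 2.2 CPM and the next at 0.707. At the first Mxi1 start the lowest MEL library stood at 5.23 CPM and the next at 6.83. Over the Mxd4 region the highest MEL library stood at 63.2 CPM and the next at 48.8. At the Myb promoter the lowest ES-EP library stood at 2.22 CPM and the next at 6.0. Over the Mycn region the lowest ES-EP library stood at 16.3 CPM and the next at 20.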

How the results depend on the processing

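The number of windows of the 10 genes called over input was 30 (MEL cells) and 26 (ES-EP), and ranged from 15 to 32 and from 10 to 27 when 1 preparation was left out (all windows, 0.215% to 0.473% and 0.133% to 0.362%). It was 14 and 8 with the first library of each preparation alone (0.18% and 0.115%), and 49 in MEL cells without the 5 kb and 10 kb terms (0.6%). Promoters above input, 4 for MEL cells and 5 for ES-EP, ranged from 2 to 10 and from 3 to 8 without 1 preparation (all promoters, 3.67% to 20.3% and 3.82% to 14.9%), and were 3 in ES-EP with the first libraries (2.6%). Windows that differed between the cell types were 0, and 2 with median-ratio scaling (2.12% of all windows) and 2 with limma on log2 CPM plus 0.5 (2.71%). The difference at the Mxi1 site at 21.8 kb was 2.93 with the latter. Regions that differed were 1 (Myc), from 1 to 2 without 1 preparation (9.12% to 12.7% of all regions), 2 with the first libraries (10.4%), 3 with median-ratio scaling (17%) and 0 with the input of each chromosome divided out (6.72%). They were not the same genes: Mnt, lower in MEL cells, passed without MEL preparation B (−0.90), when ES-EP preparation B was left out (−0.78, Myc lost) and with median ratios (−0.49), Mxd1 without ES-EP preparation A (0.83), Mxi1 with median ratios (0.47), and Mxi1 (0.57) and Mxd1 (0.71) in place of Myc with the first libraries. With the preparation letter as a replicate block 0 windows, 0 promoters and 1 region differed (0.0139% of all windows, 0.0203% of all promoters and 12.7% of all regions). The letters did not pair the samples. No result reversed. The causes were not tested. Depth limits weak sites, since 3 reads are 0.423 to 0.528 CPM in a preparation.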
